A study of Homo sapiens with 14 samples.

Results

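The genes described here are the 45 subunits and partners of the proteasome whose symbols run from PSMA to PSMG followed by a number, out of 21572 genes in the expression table. The rule uses symbols and no measured value, although it was set with earlier results of these data known. Of the 48 symbols of this form in the table, 3 are not analysed here. The cells, labelled as the hepatocellular carcinoma line HepG2, received either a scrambled siRNA (control) or siADAR1, an siRNA against the RNA-editing enzyme ADAR1 (KD). The labels and methods call the cells stably transfected, while the methods also describe a timed nucleofection with the siRNA. Each condition was profiled by PARS-seq, in which poly-A RNA is cut in vitro with S1 nuclease at single-stranded bases or with RNase V1 at double-stranded bases (8 libraries, 2 of each nuclease and condition), by RNA-seq (1 library of each condition) and by Ribo-seq, which sequences the fragments that ribosomes protect (2 libraries of each condition). Levels are RPKM, read counts scaled by transcript length and by the number of mapped reads. The PARS-seq RPKM of a replicate is the authors' mean of its S1 and V1 libraries and therefore carries no error of its own.

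The proteasome degrades proteins that carry ubiquitin chains. Its 20S core is a barrel of alpha subunits (PSMA genes), which form the outer rings and the gate, and beta subunits (PSMB genes), which form the inner rings and hold the active sites. The 19S particle caps the barrel. It has a ring of ATPases (PSMC genes) that unfold the substrate, and non-ATPase subunits (PSMD genes) that bind ubiquitin, remove it and hold the particle together. PSME genes encode other activators of the barrel, PSMF1 encodes an inhibitor, and the PSMG proteins with PSMD5, PSMD9 and PSMD10 are chaperones that help to assemble the 20S core and the 19S base and leave before the particle is complete.

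The siRNA target and the cell label were read first. ADAR, which encodes ADAR1, was at 40.7 and 46.8 RPKM in the PARS-seq controls against 15.1 and 15.1 in KD, and at 54.8 against 15.4 in RNA-seq. It was at 43.6 against 8.73 in Ribo-seq replicate 1, but at 55.5 against 44.03 in Ribo-seq replicate 2, a change of -20.6%. The Ribo-seq replicate 2 pair therefore stood apart, and counts over the contrasts are given with and without it. TUBB, a tubulin gene looked up after the data were seen, was listed at 0 in the PARS-seq columns and in Ribo-seq replicate 2 and lay between 726 and 951 RPKM in RNA-seq and Ribo-seq replicate 1, so columns of one table differed in more than the treatment. The part of these differences in the results was not tested. All 8 hepatocyte markers examined (ALB, AFP, APOA1, APOB, TTR, SERPINA1, TF and FGB) stayed at or below 0.0821 RPKM in every column, so the defining markers of the labelled cell type were listed at or near 0. Since the table also lists a gene such as TUBB at 0 in some columns, a 0 in it is not by itself taken as absence of the RNA. The 8 markers were at or near 0 also in RNA-seq and Ribo-seq replicate 1, where TUBB was not. Some had values just above 0, such as APOA1 at 0.0821 RPKM in RNA-seq control. The cause of their low values was not tested. Of 5 markers of other cell types, PTPRC, PECAM1, COL1A2 and KRT5 were also near 0, and the collagen gene COL1A1 lay between 9.75 and 54.7 RPKM. The filament genes VIM and KRT18, like TUBB looked up after the data were seen, lay between 106 and 655 and between 65.6 and 331 RPKM. In such bulk samples, fewer cells of a type and less RNA per cell cannot be told apart. Read depth is not in the RPKM table, although its lowest values imply that 1 read in Ribo-seq control replicate 1 was worth 3.34 times as much RPKM as 1 read in control replicate 2. The PARS-seq libraries held between 88565995 and 197781370 read starts on the 4722 transcripts listed in all 8, which are all that S1 control replicate 1 lists, against 21052 to 22402 in the other libraries. The study's methods call the libraries of a group biological replicates, while the labels only number them, and with 2 of each the spread is poorly known.

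Of the 45 genes, 42 had a mean of at least 1 RPKM in each of the 3 assays, and they are compared below with all 9803 genes that passed the same filter. The other 3 were PSMA8, the alpha subunit of germ cells, which was listed at 0 in every column, PSMB11, the beta subunit of the thymus, which did not exceed 0.0389 RPKM, and PSMC1, a 19S ATPase. PSMC1 lay between 0 and 2.66 RPKM in the 10 columns although the particle needs it. GENCODE names 13 pseudogenes of PSMC1, more than of any other gene here, and the authors kept uniquely mapped reads only. The gene spans 14:90722871-90741773 on the plus strand (GRCh37), where 4667 of its exon bases also belong to NRDE2 on the other strand. The part of these copies in the low value was not tested, and PSMC1 is left out of the comparisons. The 45 genes lie on 17 chromosomes (GENCODE, GRCh37), with 8 on chromosome 14 and 7 on chromosome 17, and 16 of them share exon bases with a gene on the other strand while 17 have a named pseudogene. Among those that return below, PSMD11 spans chr17:30771397-30810337, PSMD3 chr17:38137060-38154212 and PSMD9 chr12:122326638-122356203, all on the plus strand, and 557 exon bases of PSMD11 are shared with a gene on the other strand.

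Promoters are shown for the antioxidant response element core, TGACNNNGC, because NFE2L1 and NFE2L2, the transcription factors known to drive proteasome genes together, bind elements of this kind. RefSeq gives windows of 300 bases around the start sites (250 before, 50 after, build GRCh38.p14) for 39 of the 45 genes. The motif was present on either strand in at least 1 window of 14 of the 39 (35.9%), against 16.1% of all 27305 gene symbols with a window. Unlike the other shares given here, this one is not limited to genes that passed the expression filter. It occurred in 7 of the 25 core subunits with a window and in 7 of the other 14 genes. The stretches below show it, in capitals, for a subunit of each ring, for both parts of the 19S particle, and for PSMD3, PSMD9 and PSMG1, which return in the comparison of KD with control. Each is written along the gene's own strand.
PSMA4: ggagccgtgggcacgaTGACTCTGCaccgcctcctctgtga
PSMB3: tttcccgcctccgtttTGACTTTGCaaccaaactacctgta
PSMC5: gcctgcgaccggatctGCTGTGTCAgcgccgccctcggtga
PSMD12: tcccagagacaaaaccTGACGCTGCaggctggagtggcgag
PSMD3: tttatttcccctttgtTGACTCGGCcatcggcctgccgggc
PSMD9, first match: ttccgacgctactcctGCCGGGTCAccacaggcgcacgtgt
PSMD9, second match: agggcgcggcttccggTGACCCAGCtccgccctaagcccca
PSMG1: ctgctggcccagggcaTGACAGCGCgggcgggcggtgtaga
They lie at chr15:78540644-78540684 (PSMA4, plus strand), chr17:38752621-38752661 (PSMB3, plus), chr17:63827648-63827688 (PSMC5, plus), chr17:67366718-67366758 (PSMD12, minus), chr17:39980754-39980794 (PSMD3, plus), chr12:121888625-121888665 and chr12:121888672-121888712 (PSMD9, plus) and chr21:39183610-39183650 (PSMG1, minus). The core lies on the opposite strand in PSMC5 and in the first match of PSMD9. PSMD3 has another match, on the opposite strand and past its start site, which is not shown. Between the match shown and the start site lie 117 bases in PSMA4, 95 in PSMB3 and 28 in PSMD3. Below control in the 4 contrasts without Ribo-seq replicate 2, described further on, lay 6 of the 14 tested genes with a match and 16 of the 22 without, against 22.6% of all tested genes. The difference between the groups with and without a match was not tested. Among the tested genes, the median RNA-seq log2 ratio of KD to control was -0.16 for the 14 with a match and -0.30 for the 22 without.

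Proteasome genes were among the higher expressed genes in every assay. Their median level was 53.9 RPKM in RNA-seq control against 12.3 for all tested genes, 78.2 and 77.1 against 11.6 and 11.6 in the PARS-seq controls, and 96.7 and 28.7 against 9.53 and 8.15 in the Ribo-seq controls. In RNA-seq control 24 of the 42 lay above the 75th percentile of all tested genes, and in Ribo-seq control replicates 1 and 2 there were 37 and 27. Core subunits did not stand at equal RNA levels. Over the 29 core subunits tested, the highest RNA-seq control level was 44.2 times the lowest (PSMB4 at 398 RPKM and PSMC6 at 9.001), and the SD of log2(RPKM + 1) was 1.56, against 1.84 over all tested genes. In Ribo-seq control the same subunits spanned 25.1 times (SD 1.12) in replicate 1 and 28.3 times (SD 1.24) in replicate 2, against SDs of 1.85 and 1.53 for all genes. In the PARS-seq controls the SD was 1.36 and 1.41, and PSMB3 at 1146 and 1149 RPKM was the highest member.

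**Figure D1:**
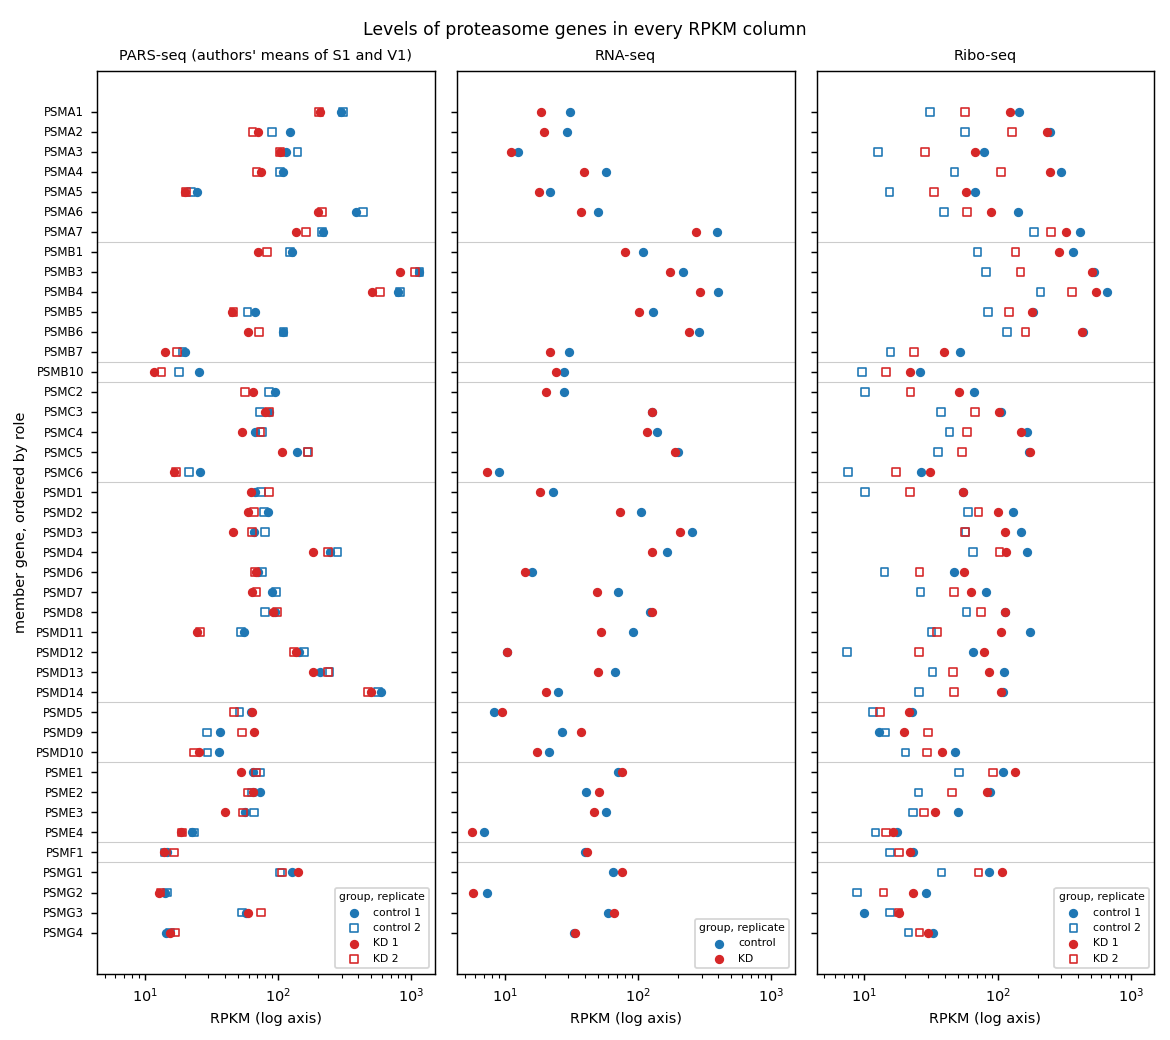
RPKM of the 42 tested proteasome genes (rows, ordered by role, with lines between roles) in PARS-seq (authors' means of S1 and V1), RNA-seq and Ribo-seq, on a log axis. Blue is control and red is KD, filled circles are replicate 1 and open squares replicate 2. Ribo-seq control replicate 2 lies left of the other Ribo-seq libraries for most genes, and the order of genes differs between PARS-seq and RNA-seq.

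The order of the core subunits was shared between Ribo-seq and RNA-seq and less so with PARS-seq. Across the 29 genes, Spearman's rho between RNA-seq control and the Ribo-seq controls was 0.79 and 0.87, while rho between RNA-seq control and the PARS-seq controls was 0.26 and 0.30. The same values over all tested genes were 0.71, 0.84, 0.60 and 0.62. These are descriptions across genes, and genes are not independent replicates. PSMD14, the deubiquitinase of the 19S lid, chosen after its values were seen, is an example, at 25.0 RPKM in RNA-seq control and 588 and 561 in the PARS-seq controls. PSMB6, a catalytic subunit, lay the other way, at 288 RPKM in RNA-seq control and 108 and 109 in PARS-seq.

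In KD most proteasome genes stood below control in every assay except Ribo-seq replicate 2, where nearly all stood above it. The median log2 ratio of KD to control, taken on RPKM + 1, was -0.39 and -0.24 in PARS-seq replicates 1 and 2, -0.29 in RNA-seq and -0.13 in Ribo-seq replicate 1, but 0.63 in Ribo-seq replicate 2. The medians of all tested genes were 0.03, 0.05, -0.02, -0.02 and 0.15. Below control lay 37 of the 42 genes in PARS-seq replicate 1 (47.6% of all tested genes), 33 in replicate 2 (44.4%), 32 in RNA-seq (52.8%) and 32 in Ribo-seq replicate 1 (52.1%). In Ribo-seq replicate 2, 41 of 42 lay above control, against 61.4% of all tested genes. In these 4 contrasts without Ribo-seq replicate 2, 27 of 42 lay below control in every one, against 22.6% of all tested genes, and with it 1 of 42 did, against 9.67%. In the PARS-seq table, both KD values lay below both control values for 28 of 42 genes (27.6% of all tested genes) and above both for 3 (33.5%). These are counts, and no test was run on them.

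**Figure D2:**
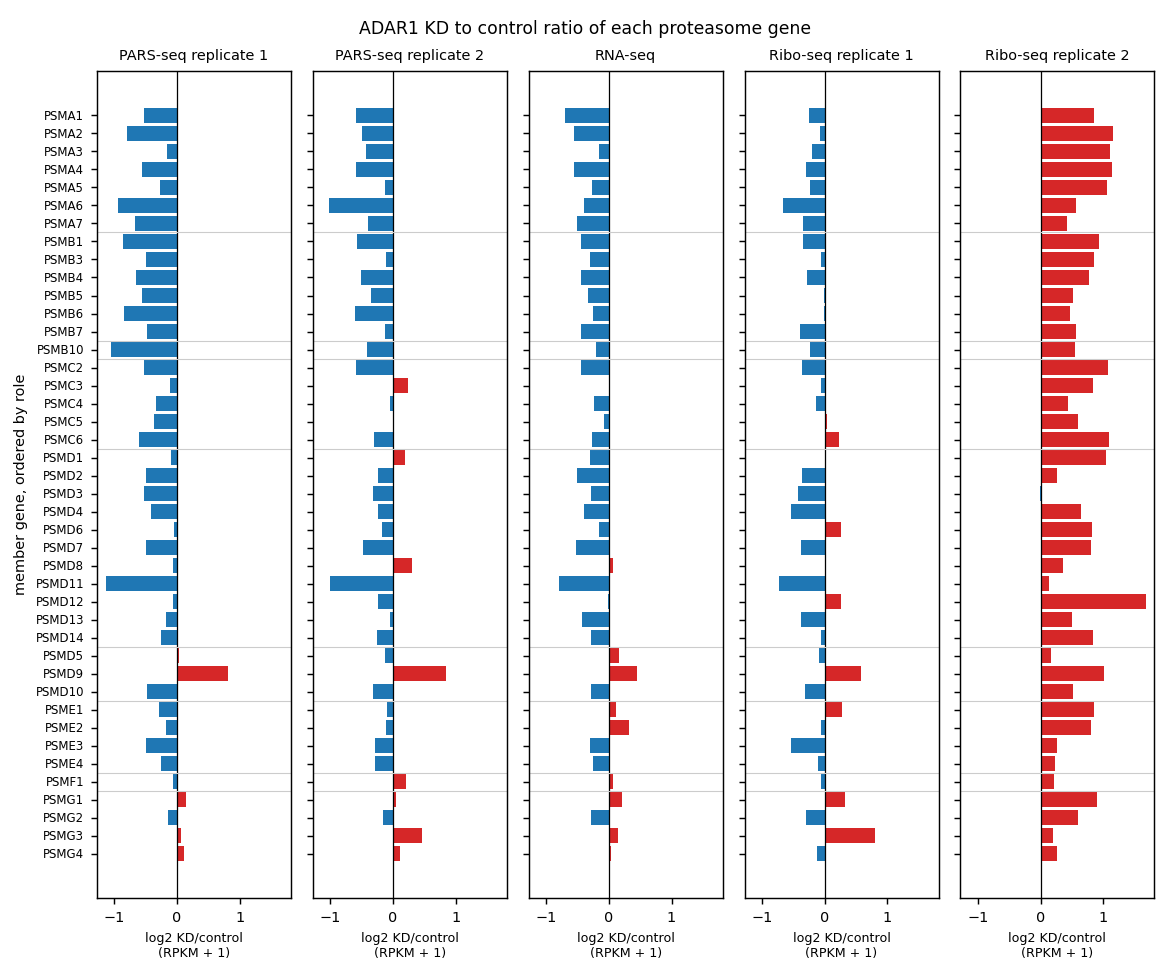
Log2 ratio of KD to control, on RPKM + 1, of the 42 tested proteasome genes (rows, ordered by role, with lines between roles) in each of the 5 contrasts. Bars left of 0 (blue) are lower in KD and bars right of 0 (red) are higher. The first 4 panels hold mostly blue bars and Ribo-seq replicate 2 holds red bars for 41 of 42 genes.

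Among the RPKM columns, Ribo-seq alone has 2 single libraries of each condition, and its main fit, without a replicate block, called no gene. By limma on log2(RPKM + 1) over 10880 genes, 0 passed an adjusted p of 0.05, and 43 (0.395%) had an unadjusted p under 0.05. None of the 43 was a proteasome gene. ADAR itself, at -1.26 (SE 0.82, n = 2 libraries a condition), had an adjusted p of 1.00 by limma. In this fit a missed threshold therefore does not show that a gene did not change. With the replicate number as a block, ADAR had an adjusted p of 0.0238 by limma. In that fit 143 genes were called, and no proteasome gene was among them. The fitted ratio was above 0 for 37 of the 42 (58.0% of all genes) and below 0 for 5, with a median of 0.25 against 0.08 for all genes. Without control replicate 2 it was below 0 for 38 of 42 (55.7% of all genes), with a median of -0.59 against -0.08. Without control replicate 1 it was above 0 for all 42 (59.5%), with a median of 1.05 against 0.18. Without KD replicate 1 it was below 0 for 32 of 42 (47.1%), with a median of -0.13 against 0.03, and without KD replicate 2 above 0 for 41 of 42 (57.5%), with a median of 0.54 against 0.12. The direction of this fit therefore changed with the library left out. Each such fit leaves 1 condition with a single replicate number, so the offset between replicates enters its ratio. The median level of the 42 was 96.7 and 28.7 RPKM in control replicates 1 and 2. Within the replicate pairs the median log2 ratios were -0.13 and 0.63. The part of the offset in these shifts was not tested.

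In the 20S core every gene tested had the same directions. Of the 7 alpha ring genes and the 6 beta ring genes tested, all 13 lay below control in both PARS-seq replicates, in RNA-seq and in Ribo-seq replicate 1, and all 13 lay above control in Ribo-seq replicate 2. Of all tested genes, 22.6% lay below control in those 4 contrasts and 12.9% had the directions of all 5. Their median log2 ratios were -0.56, -0.48, -0.44, -0.24 and 0.85 in that order.

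PSMA6, named after its values were seen, had the lowest mean log2 ratio of the alpha ring outside Ribo-seq replicate 2. Its RPKM was 384 and 434 in the PARS-seq controls and 199 and 213 in KD, 49.9 and 37.6 in RNA-seq control and KD, 143 and 89.3 in Ribo-seq replicate 1, and 39.5 and 59.1 in Ribo-seq replicate 2. The PARS-seq groups did not overlap, and the ratio turned in Ribo-seq replicate 2. PSMA7, the most abundant alpha subunit in RNA-seq, had 219 and 213 RPKM in the PARS-seq controls, 137 and 162 in KD, 390 and 275 in RNA-seq control and KD, 416 and 326 in Ribo-seq replicate 1, and 187 and 251 in replicate 2. PSMA3, the least abundant in RNA-seq control, had 114 and 140 against 103 and 103, then 12.6 against 11.2, 78.3 against 67.7 and 12.6 against 28.4 in the same order. Both had the directions of PSMA6, with a smaller RNA-seq log2 ratio for PSMA3 (-0.16).

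Among the catalytic subunits, PSMB5 carries the chymotrypsin-like activity, PSMB6 the caspase-like activity and PSMB7 the trypsin-like activity. PSMB5 was at 66.6 and 58.9 RPKM in the PARS-seq controls and 44.9 and 46.2 in KD, 129 and 102 in RNA-seq control and KD, 182 and 180 in Ribo-seq replicate 1, and 84.9 and 121 in replicate 2. PSMB6 was at 108 and 109 against 59.8 and 71.9, then 288 against 243, 434 against 431 and 117 against 162. PSMB7 was at 20.01 and 19.2 against 14.1 and 17.4, then 30.2 against 21.9, 52.1 against 39.6 and 15.7 against 23.6. All 3 lay lower in KD in PARS-seq with no overlap between the groups, as did 27.6% of all tested genes. In Ribo-seq replicate 1 the log2 ratios of PSMB5 and PSMB6 were close to 0, at -0.02 and -0.01, against -0.39 for PSMB7. PSMB4, a structural subunit and the most abundant beta subunit in RNA-seq, went from 398 to 291 RPKM there, from 796 and 823 to 507 and 581 in PARS-seq, from 663 to 548 in Ribo-seq replicate 1 and from 209 to 359 in replicate 2. The other beta ring genes, PSMB1 and PSMB3, had the same directions.

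PSMB10 replaces PSMB7 in the immunoproteasome, a form of the barrel that interferon induces, and PSME1 and PSME2 encode the interferon-inducible activator PA28. PSMB10 was at 25.4 and 18.1 RPKM in the PARS-seq controls and 11.7 and 13.4 in KD, 28.1 and 24.2 in RNA-seq control and KD, 26.0 and 21.9 in Ribo-seq replicate 1, and 9.57 and 14.5 in replicate 2. PSME1 was at 64.4 and 72.9 against 52.8 and 68.4, then 70.6 against 76.2, 110 against 134 and 50.9 against 92.4. PSME2 was at 73.0 and 63.5 against 64.8 and 58.8, then 40.6 against 51.3, 87.2 against 83.3 and 25.4 against 45.1. For PSME1 and PSME2 the RNA-seq value was higher in KD, while PSMB10 was lower. Interferon-response genes stood higher in KD in those columns. All 12 of 15 listed that were tested lay above control in RNA-seq (47.2% of all tested genes) and in Ribo-seq replicate 1 (47.7%), with median log2 ratios of 0.64 and 0.93 against -0.02 and -0.02 for all tested genes. In Ribo-seq replicate 2, 9 of the 12 lay above control with a median of 0.20, against 61.4% and 0.15 for all tested genes. In PARS-seq 9 and 10 of the 12 lay below control, against 47.6% and 44.4%. ISG15, a ubiquitin-like modifier, went from 301 to 540 RPKM in RNA-seq, from 219 to 331 in Ribo-seq replicate 1 and from 45.2 to 69.9 in replicate 2. In PARS-seq it had 226 and 135 RPKM in control against 139 and 141 in KD.

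The directions of the 20S core in all 5 contrasts were shared by 8 of the 16 genes tested of the 19S particle, against 12.9% of all tested genes. Of the 16, 16 lay below control in PARS-seq replicate 1 (47.6% of all tested genes), 12 in replicate 2 (44.4%), 14 in RNA-seq (52.8%) and 10 in Ribo-seq replicate 1 (52.1%), and 15 lay above it in Ribo-seq replicate 2 (61.4%). Below control in the 4 contrasts without Ribo-seq replicate 2 lay 9 of the 16, against all 13 of the 20S core and 22.6% of all tested genes. Whether the 20S and 19S genes differ was not tested.

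PSMC5, the most abundant ATPase in RNA-seq, was at 139 and 167 RPKM in the PARS-seq controls and 108 and 168 in KD, 201 and 191 in RNA-seq, 170 and 174 in Ribo-seq replicate 1, and 35.6 and 54.2 in replicate 2. PSMC6, the least abundant ATPase tested in RNA-seq control, was at 25.8 and 21.5 against 16.5 and 17.2, then 9.001 against 7.34, 26.5 against 31.3 and 7.56 against 17.2. PSMC5 overlapped between the PARS-seq groups, and PSMC6 did not. The 5 ATPases tested ranged from -0.45 to 0.00 on the log2 scale in RNA-seq and from 0.43 to 1.09 in Ribo-seq replicate 2. The 11 non-ATPase genes ranged from -0.80 to 0.06 in RNA-seq and from -0.01 to 1.67 in Ribo-seq replicate 2.

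PSMD11, a subunit of the 19S lid named after its values were seen, had the lowest mean log2 ratio of the 42 outside Ribo-seq replicate 2 (-0.92). Its RPKM was 55.1 and 52.4 in the PARS-seq controls and 24.5 and 25.8 in KD, with changes of -55.5% and -50.8%. It went from 92.4 to 52.8 in RNA-seq, from 175 to 105 in Ribo-seq replicate 1 and from 31.8 to 34.9 in Ribo-seq replicate 2. The log2 ratio was -1.13, -1.0, -0.80, -0.73 and 0.13. PSMD12, also in the lid and the least abundant non-ATPase subunit in RNA-seq, was at 10.5 against 10.4 RPKM there. In PARS-seq it had 143 and 156 against 137 and 132, in Ribo-seq replicate 1 65.4 against 78.8, and in replicate 2 7.37 against 25.7, the highest log2 ratio of any member in that contrast (1.67).

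PSMD3 was the single member below control in all 5 contrasts. This lid subunit is the most abundant non-ATPase gene in RNA-seq, at 253 RPKM in control and 207 in KD. It had 66.3 and 80.0 RPKM in the PARS-seq controls against 45.5 and 63.9 in KD, 151 against 112 in Ribo-seq replicate 1 and 57.3 against 56.9 in replicate 2. The last difference was 0.01 on the log2 scale. The fitted Ribo-seq ratio was -0.21 (SE 0.72, n = 2 libraries a condition, adjusted p = 1.00 by limma), and it was 0.47 without control replicate 1, 0.27 without KD replicate 2, -0.70 without KD replicate 1 and -0.90 without control replicate 2.

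Of the 7 assembly chaperones tested, 2 lay below control in PARS-seq replicate 1 (47.6% of all tested genes), 3 in replicate 2 (44.4%), 2 in RNA-seq (52.8%) and 4 in Ribo-seq replicate 1 (52.1%), and all 7 lay above it in Ribo-seq replicate 2 (61.4%). Whether they differ from the core subunits was not tested. The 3 members above control in all 5 contrasts (14.9% of all tested genes) were all among them: PSMD9, PSMG1 and PSMG3.

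PSMD9, a chaperone of the 19S base, was at 36.8 and 29.4 RPKM in the PARS-seq controls and 65.5 and 53.5 in KD, 26.9 and 37.1 in RNA-seq control and KD, 12.9 and 19.8 in Ribo-seq replicate 1, and 14.4 and 30.0 in replicate 2. In every assay each KD value lay above each control value, which held for 2 of the 42, PSMD9 and PSMG3, against 4.94% of all tested genes. The log2 ratios were 0.81, 0.84, 0.45, 0.58 and 1.01. The Ribo-seq fit gave 0.80 (SE 0.45, n = 2 libraries a condition) with an adjusted p of 1.00 by limma and an unadjusted p of 0.134, so no difference was called. PSMG1, which pairs with PSMG2 to assemble the alpha ring, had 128 and 103 against 142 and 107 RPKM in PARS-seq, 64.7 against 75.3 in RNA-seq, 86.4 against 108 in Ribo-seq replicate 1 and 37.9 against 71.5 in replicate 2. PSMG3, which pairs with PSMG4, had 57.1 and 53.5 against 59.9 and 74.3, then 59.2 against 65.8, 9.97 against 18.2 and 15.6 against 17.98. The PARS-seq groups overlapped for PSMG1 and not for PSMG3. The Ribo-seq fits gave 0.61 (SE 0.63) and 0.50 (SE 0.44), each with an adjusted p of 1.00 by limma. The value of PSMG1 was 0.02 without control replicate 2, 0.32 without KD replicate 1 and 1.19 without control replicate 1, and that of PSMG3 was 0.20 without control replicate 1 and 0.80 without control replicate 2. That of PSMD9 lay between 0.51, without KD replicate 2, and 1.09. PSMG2 and PSMD5 did not share this pattern. PSMG2, the least abundant 20S chaperone in RNA-seq control, had 14.2 and 14.7 against 12.8 and 13.1 RPKM in PARS-seq, then 7.33 against 5.82, 28.8 against 23.2 and 8.78 against 13.9. PSMD5, the least abundant 19S chaperone in RNA-seq control but the most abundant in the PARS-seq controls, had 62.2 and 51.3 against 63.3 and 46.9, then 8.37 against 9.53, 22.8 against 21.4 and 11.6 against 13.1. PSMG2 had the directions of the 20S core in all 5 contrasts, and so did PSMD10, while PSMG4 stayed between -0.12 and 0.27 on the log2 scale.

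Of the remaining partners, PSME3, the nuclear activator, lay below control in 4 contrasts (57.8 against 46.6 RPKM in RNA-seq) and above it in Ribo-seq replicate 2 (23.2 against 28.0). PSME4, the large activator known from sperm and DNA repair, was the least abundant activator in RNA-seq control, at 22.5 and 23.4 against 18.8 and 19.1 RPKM in PARS-seq, then 6.99 against 5.69, 17.7 against 16.4 and 12.1 against 14.5. PSMF1, the inhibitor, was at 14.6 and 14.1 RPKM in the PARS-seq controls and 13.97 and 16.5 in KD, at 39.8 and 41.8 in RNA-seq, 23.0 and 22.1 in Ribo-seq replicate 1, and 15.6 and 18.2 in replicate 2. Its ratios lay between -0.06 and 0.21 in the 5 contrasts.

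Other genes of the pathway were counted in the same way, and whether they differ from the members or from all genes was not tested. Of 24 listed genes found among those measured, 23 were tested, and 14, 13, 16 and 15 of them lay below control in PARS-seq replicates 1 and 2, RNA-seq and Ribo-seq replicate 1, while 16 lay above it in Ribo-seq replicate 2. The shares of all tested genes were 47.6%, 44.4%, 52.8%, 52.1% and 61.4% in that order. Below control in all 5 contrasts lay 3 of the 23, NPLOC4, PAAF1 and NGLY1 (9.67% of all tested genes), and above it in all 5 lay 2, RAD23B and UBQLN2 (14.9%). The 3 genes given next were chosen after their values were seen. POMP, the maturation factor of the 20S core, was at 231 and 251 RPKM in the PARS-seq controls and 152 and 204 in KD, 11.2 and 8.09 in RNA-seq, 119 and 85.8 in Ribo-seq replicate 1, and 18.5 and 34.7 in replicate 2, where it lay above control. NPLOC4, a cofactor of the unfoldase VCP, was at 74.6 and 46.8 RPKM in RNA-seq control and KD and at 33.2 and 17.1 in Ribo-seq replicate 2. NFE2L1 was at 63.6 and 60.1 RPKM in RNA-seq control and KD. None of these genes passed an adjusted p of 0.05 in the Ribo-seq fit.

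Ribo-seq to RNA-seq ratios, a measure of ribosome occupancy per transcript, depended on the Ribo-seq replicate. The median log2 ratio of the 42 genes was 0.75 in control replicate 1 and -0.83 in control replicate 2, and 0.82 and 0.03 in KD. All tested genes had medians of -0.37, -0.60, -0.35 and -0.41. Above 0 lay 32 of 42 in control replicate 1 (39.1% of all tested genes), 6 in control replicate 2 (26.1%), 31 in KD replicate 1 (40.6%) and 21 in KD replicate 2 (37.0%). The replicates share a single RNA-seq library in each condition, so their difference comes from Ribo-seq alone.

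The 3 genes with the highest mean ratio were all in the alpha ring. The median log2 ratio of the ring was 2.19 and -0.29 in the controls and 2.49 and 1.27 in KD, against 0.25, -1.66, 0.35 and -0.92 for the 19S ATPases. In control replicate 2 the 19S chaperones had a higher median, -0.07, and PSMA7 of the alpha ring had only 0.09 and -1.06 in the controls and 0.25 and -0.13 in KD. PSMA2 had the highest mean ratio, with 3.02 and 0.93 in the controls and 3.49 and 2.64 in KD. PSMA1 had 2.19, -0.00, 2.65 and 1.55, and PSMA3 had 2.55, 0.00, 2.49 and 1.27. The underlying levels of PSMA2 were 29.4 RPKM in RNA-seq control, 246 and 56.9 in the Ribo-seq controls, 19.7 in RNA-seq KD and 232 and 128 in Ribo-seq KD, with 122 and 90.3 in the PARS-seq controls and 70.3 and 64.2 in KD. For PSMA1 they were 31.0 RPKM, 145 and 31.0 in control, 18.7, 123 and 56.8 in KD, and 296 and 305 against 205 and 204 in PARS-seq. Both alpha subunits were thus lower in KD in RNA-seq. PSMA2 shares 1043 exon bases with a gene on the opposite strand and has 3 named pseudogenes, and the counting was not stated to use strand.

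PSMG3, PSMD3 and PSMC5 had the lowest mean ratios over the 4 libraries. PSMG3 had -2.46 and -1.86 in the controls and -1.80 and -1.81 in KD, and its replicates lay closer together than those of PSMD3 and PSMC5 in both conditions. PSMD3 had -0.74, -2.12, -0.87 and -1.84, and PSMC5 had -0.23, -2.46, -0.13 and -1.80. All 3 were below 0 in each of the 4 libraries, which their choice by the mean over the same libraries makes likely.

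**Figure D3:**
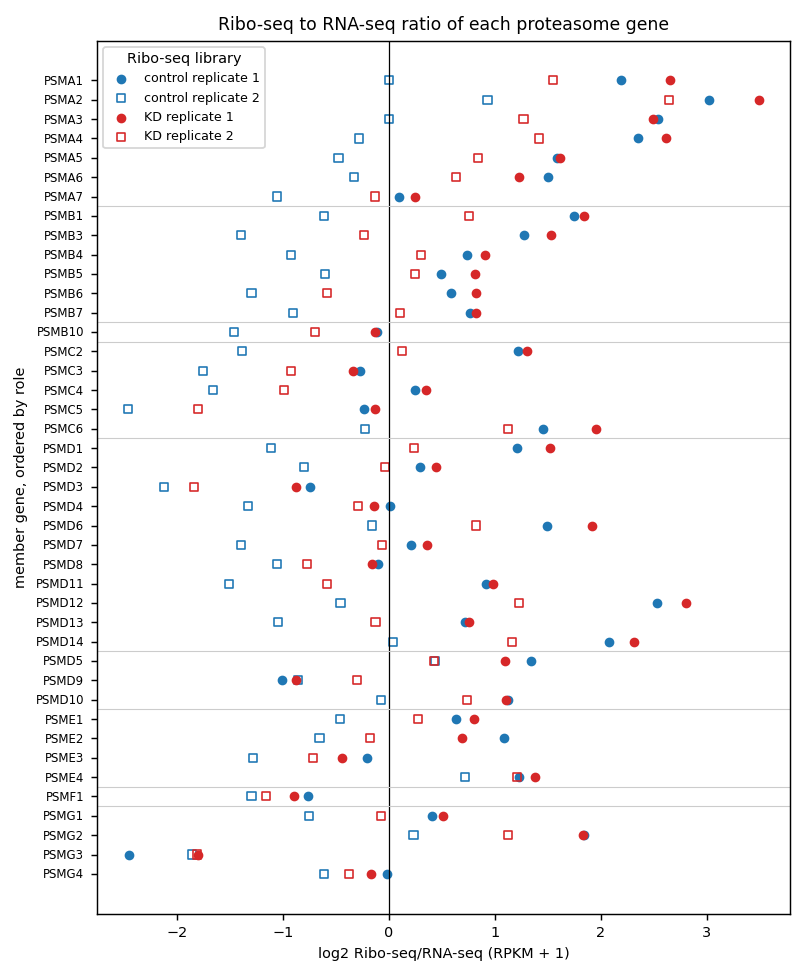
Log2 ratio of Ribo-seq to RNA-seq, on RPKM + 1, of the 42 tested proteasome genes (rows, ordered by role, with lines between roles). Blue is control and red is KD, filled circles are Ribo-seq replicate 1 and open squares replicate 2. Replicate 1 lies to the right of replicate 2 for most genes, PSMA2 reaches the highest value, and PSMC5 and PSMG3 reach the lowest.

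The change in this ratio, KD over control (TER), followed the replicates too. The median log2 TER of the 42 genes was 0.10 in replicate 1 and 0.90 in replicate 2, against 0.01 and 0.19 for all tested genes. Above 0 lay 28 of 42 in replicate 1 (50.9% of all tested genes) and 41 of 42 in replicate 2 (62.5%). The values over the 13 genes of the 20S core were 11 of 13 with a median of 0.17 and 13 of 13 with a median of 1.23. The count of 13 of 13 follows from the directions already given. All 13 lay above control in Ribo-seq replicate 2 and below it in RNA-seq.

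Read starts can be summed over each transcript in the single S1 and V1 libraries, which allows a test over replicates. These are the libraries whose means make up the PARS-seq RPKM columns, so they are the same measurements and no independent support for those columns. Only 17 of the 45 genes could be paired with a transcript, because the pairing of identifiers with symbols comes from a list that the study made of genes whose share of double-stranded bases differed between KD and control. Their read starts were therefore read within the fit over all transcripts, scaled to each library's sum over the 4722 transcripts listed in all 8. All 17 were lower in KD with both nucleases, with a median log2 ratio of -0.73 for S1 and -0.70 for V1. On this scale 79.5% of all transcripts tested lay below 0 for S1 and 79.5% for V1, with medians of -0.36 and -0.34. With trimmed-mean (TMM) scaling the medians over all transcripts were 0.00 and 0.00, and those of the 17 were -0.37 and -0.35, with 14 and 16 of 17 below 0 against 49.4% and 49.6% of all transcripts.

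By limma, 9 of 17 transcripts were called lower in KD for S1 (18.6% of the 4721 tested) and 2 of 17 for V1 (7.72% of the 4716 tested), and none was called higher. With TMM scaling 5 were called lower for S1 (9.28%) and 3 for V1 (7.10%). With these sums taken without the most covered transcript there were 5 for S1 (9.64%) and 4 for V1 (7.80%). Over all transcripts the S1 calls were 878 lower and 70 higher, and with TMM scaling 438 lower and 306 higher. The V1 calls were 364 lower and 16 higher, and with TMM scaling 335 lower and 179 higher. PSMD11 was called by both nucleases under each of these scalings. Its S1 read starts, as RPM (scaled to the read starts of the library on the 4722 transcripts, and not to length), were 86.4 and 83.1 in control and 28.3 and 35.1 in KD (log2 ratio -1.43, SE 0.29, n = 2, adjusted p = 2.03e-05 by limma). Its V1 read starts in RPM were 85.2 and 91.2 in control and 30.1 and 42.8 in KD (-1.30, SE 0.36, n = 2, adjusted p = 0.00743 by limma). The control and KD groups did not overlap for either nuclease, and the share of all transcripts without overlap was not counted.

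Of the catalytic subunits, PSMB6 and PSMB7 were called lower for S1 and none of the 3 was called for V1. PSMB6 had 65.3 and 55.6 RPM of S1 read starts in control against 26.1 and 34.0 in KD (log2 ratio -1.02, SE 0.29, n = 2, adjusted p = 0.00563 by limma). PSMB7 had 52.2 and 30.3 against 19.1 and 20.04 (-1.02, SE 0.31, n = 2, adjusted p = 0.00984 by limma), and PSMB5 had 51.3 and 38.2 against 25.5 and 27.7 (-0.73, SE 0.30, n = 2, adjusted p = 0.0686 by limma). None of these S1 groups overlapped, and PSMB5 did not pass the threshold. The share of all transcripts without overlap was not counted, while 79.5% of all transcripts tested lay below 0 for S1. For V1 the adjusted p by limma was 0.0605 for PSMB6, 0.172 for PSMB7 and 0.223 for PSMB5, and 0.0475 for PSMB6 with TMM scaling. PSMB10, at 21.1 and 11.4 against 6.07 and 7.61, and the chaperone PSMG2, at 17.97 and 15.1 against 7.37 and 7.497, also passed (adjusted p = 0.0103 and 0.0124 by limma), and their counts were the smallest of the 17. PSMG2 was the other transcript called by V1 (-1.08, SE 0.37, n = 2, adjusted p = 0.0482 by limma). PSMA3, PSMA4, PSMD3 and PSME3 passed for S1 with library scaling but not with TMM scaling, where their adjusted p lay at 0.154, 0.0716, 0.212 and 0.340. PSME2 did not pass in either nuclease (adjusted p = 0.180 and 0.429 by limma). The calls changed with the library left out, for the 17 and for all transcripts alike. Each such fit leaves 1 library in a condition and so has no measure of the spread within it. For S1, 1 of 17, PSMD11, was called lower without KD replicate 1 (5.30% of all transcripts) and without KD replicate 2 (4.89%), 4 without control replicate 1 (9.04%) and 13 without control replicate 2 (36.5%). For V1, 0 of 17 were called lower without control replicate 1 (1.51%) and without control replicate 2 (4.09%), 1, PSMD11, without KD replicate 1 (5.58%) and 12 without KD replicate 2 (16.2%).

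The share of double-stranded (DS) bases among the bases that could be called DS or single-stranded (SS) was computed for the same 17. A base was called where Fisher's exact test of its V1 and S1 read starts against the sums of both libraries over the 4722 transcripts gave an unadjusted p under 0.05. The median share was 0.622 and 0.632 in control replicates 1 and 2 and 0.557 and 0.590 in KD, and 14 of 17 were lower in KD in both replicates. All 4476 transcripts with enough reads had medians of 0.615, 0.604, 0.542 and 0.574, and 74.0% of them were lower in both. With bases called against the read starts of the transcript itself, 13 of 17 were lower in both, against 61.7% of all 4478 transcripts with enough called bases. Since the list was chosen for such differences on these samples, neither count is independent evidence of direction, and whether the 17 differ from all transcripts was not tested.

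PSMD11 had the DS share 0.681 (95% Wilson interval 0.640 to 0.719, 523 called bases) and 0.680 (0.641 to 0.718, 557 bases) in control, and 0.533 (0.480 to 0.584, 351 bases) and 0.614 (0.557 to 0.668, 293 bases) in KD. The intervals cover counting error only. PSMG2, with 57 to 128 called bases, had 0.555 and 0.532 against 0.380 and 0.491, and PSMB5 had 0.735 and 0.713 against 0.682 and 0.699. All 3 were lower in KD in both replicates. PSMA3 (0.601 and 0.525 against 0.557 and 0.591), PSMA4 (0.557 and 0.531 against 0.477 and 0.556) and PSMC3 (0.617 and 0.632 against 0.580 and 0.646) were lower in replicate 1 and higher in replicate 2. With bases called against the transcript's own read starts these directions changed, PSMA4 and PSMC3 being lower in KD in both replicates and PSMA3 higher in both, as was PSMD13, which was lower in both with the sums over the 4722 transcripts. PSMD5 and PSME2, also lower in both with those sums, then differed in direction between the replicates. In 0 of the 17 did both KD intervals lie below both control intervals.

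**Figure D4:**
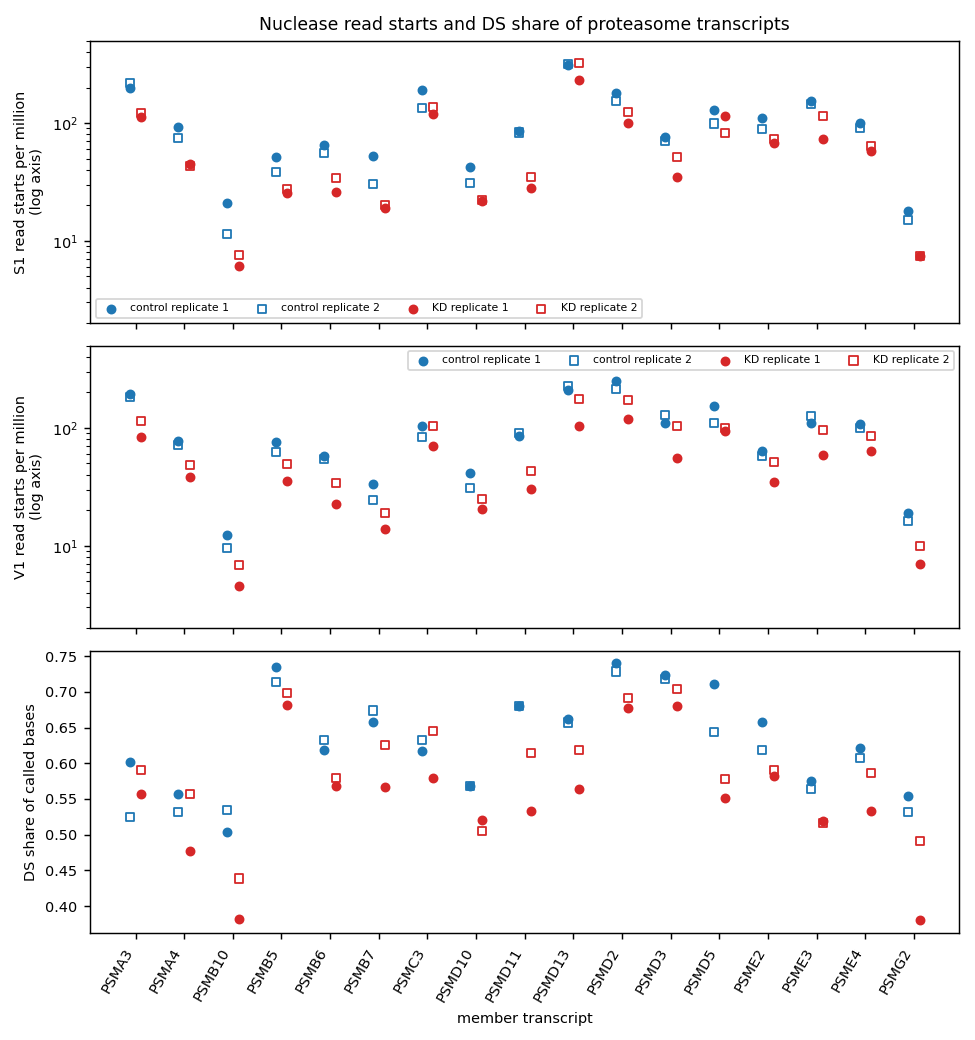
S1 read starts (top) and V1 read starts (middle) in RPM over the 4722 shared transcripts, on log axes, and DS share of called bases (bottom) of the 17 proteasome transcripts, each library or replicate profile by itself. Blue is control and red is KD, filled circles are replicate 1 and open squares replicate 2. PSMD11 is lower in KD in all 3 panels, and PSMA3, PSMA4 and PSMC3 change direction between replicates in the bottom one.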

How the data were processed

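The authors deposited one table of RPKM per RefSeq gene, from reads aligned with Bowtie2 to hg19 (version not given in the sources used here), kept if unique and counted without a stated strand option. They also deposited per-base counts of read starts on UCSC transcripts for the 8 PARS-seq libraries. Sums of these counts per transcript were scaled to each library's sum over the 4722 transcripts listed in all 8, not to all its read starts, because S1 control replicate 1 lists no others, and 0.5 was added. RPKM contrasts used log2(RPKM + 1) and genes with a mean of at least 1 RPKM in each assay. The Ribo-seq fit needed that mean in Ribo-seq alone. Tests used limma 3.58.1 (R 4.3.3) with a mean trend and Benjamini-Hochberg adjustment over all features, threshold 0.05, and were tested on simulated data. At the spread between these libraries, the Ribo-seq fit recovered no change put into those data. The S1 and V1 fits missed most of the smaller ones. A transcript was kept with 15 or more read starts summed over the libraries and, in 2 of them, no fewer than 10 after scaling to median depth. Base calls needed transcripts with more than 256 read starts in each library and 20 called bases. Genes were named by role, catalytic or inducible activity, highest and lowest RNA-seq level in each role, extreme Ribo-seq to RNA-seq ratios, and one direction in all 5 contrasts. Others are named as chosen after their values were seen. The members and lists were chosen with earlier results of these data known.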

Additional observations from a re-analysis of the deposited data

How the results depend on the processing

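Ribo-seq calls rose from 0 to 143 (85 higher, 58 lower, no proteasome gene) with the replicate block, and ranged from 0 to 24 when a library was left out. Same-numbered libraries deviated together (correlation 0.81 in Ribo-seq, 0.459 in S1, 0.681 in V1), but with 2 pairs they share only a number. With the block, S1 calls went from 948 to 1043, V1 calls from 380 to 100 and V1 calls among proteasome transcripts from 2 to 0. By limma, the V1 adjusted p then was 0.204 for PSMD11 and 0.414 for PSMG2, that of PSMD11 in S1 still passed (1 of 10 proteasome calls), and that of ADAR in Ribo-seq was 0.0238. Leaving out a library gave 239 to 1833 S1 calls and 76 to 776 V1 calls, and 1 to 13 and 0 to 12 among the 17 proteasome transcripts. S1 calls among them were 5 with TMM scaling and 5 with library sums over the shared transcripts without the most covered one, where V1 calls were 4. TMM scaling moved the median of all transcripts from -0.36 to 0.00 in S1 and from -0.34 to 0.00 in V1. The Ribo-seq ratio of PSMD3 ranged from -0.90 to 0.47 when a library was left out, with 0.27 without KD replicate 2. Centring each ratio on the median of all genes gave 2 members lower in all 5 contrasts (12.7% of all genes) and an RNA-seq median of -0.27, and a pseudocount of 0.1 gave -0.29. The SD among core subunits, on average over the control columns, was 1.39 in PARS-seq (1.72 for 20S and 1.05 for 19S subunits alone), 1.56 in RNA-seq (1.59 with a pseudocount of 0.1, 1.65 for 20S, 1.52 for 19S) and 1.18 in Ribo-seq (0.91 for 19S). The cause of these differences was not tested. RNA-seq has 1 library a condition, and 28 of the 45 genes have no transcript count here, which limits the comparisons.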
